A study of Mus musculus with 8 samples.

Results

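The genes described here encode the sodium pump beta subunits and the plasma membrane exchangers that trade sodium for calcium: Atp1b1, Atp1b2 and Atp1b3, Slc8a1, Slc8a2 and Slc8a3, and Slc24a2 and Slc24a3. They were taken by name from the deposited count matrix, and all 8 were found among its 54446 genes. The study sequenced RNA of 8 mouse samples: 4 were Wild-type (WT replicates 1 to 4) and 4 were Homozygous, Scn2agt/gt (HOM replicates 1 to 4), the WT animals being littermates. Both copies of Scn2a, the gene of the neuronal sodium channel NaV1.2, carry a gene trap in HOM, a cassette that is meant to cut the transcript short and lower the channel. Both groups are of the strain labelled C75BL6 and came from heterozygous breeding pairs, and the labels name no driver or cell type that limits the trap. The mice are called adult, and the sources used here give no age in weeks, no sex and no brain region for the RNA. Since nothing states that every sample is a different animal, p-values cover only the spread between these samples, which may be technical.

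Every action potential lets sodium into the neuron, and the sodium pump (Na+/K+-ATPase) uses ATP to carry it out again in exchange for potassium. The pump pairs a catalytic alpha subunit with a glycosylated beta subunit, which brings the alpha subunit to the membrane and tunes its ion affinities. The sodium gradient that results drives the exchangers of the Slc8 family (NCX), which expel calcium in exchange for sodium, and those of the Slc24 family (NCKX), which also use the potassium gradient. In brain, Atp1b1 is known as the main neuronal beta subunit gene and Atp1b2, also called AMOG, as a glial one.

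Total counts lay between 27993412 and 37538988 per library. Scn2a, the trapped gene, stood at 371 to 477 CPM in WT and 112 to 147 CPM in HOM, which puts the HOM mean at 29.4% of the WT mean (log2 fold change -1.77, SE 0.10, edgeR quasi-likelihood test, adjusted p = 1.16e-05). CPM here are the usual counts per library size, after TMM scaling of the sizes. The labels call the material neuron, yet markers of glia were abundant: in WT the 9 astrocyte markers summed to between 4898 and 5274 CPM and the 9 oligodendrocyte markers to between 3831 and 5734 CPM, beside 10041 to 11295 CPM for 7 neuronal markers. A lower level in such mixed material can mean fewer cells of a type or less RNA per cell, and these cannot be told apart. The 13 choroid plexus markers summed to between 152 and 1770.0 CPM in WT, highest in replicate 4, and to between 19.9 and 241 CPM in HOM, with Kcnj13 at 0 in every library. Of the 5 microglial markers tested 1 rose, C1qa, of the 6 endothelial markers 1 fell, Flt1, and of the 3 oligodendrocyte precursor markers tested none passed; P2ry12 and C1ql1 were at 0 in every library. Counts per gene appear to include introns, since 1261 of the 1280 protein-coding genes that lie within another gene stood at 0 in every library. Kcnj13, P2ry12 and C1ql1 are among these, so their values of 0 are not read as a lack of expression. None of the 8 genes is nested, and at most 11.1% of the span of any of them is shared with another gene.

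Of the 8 genes, 2 fell in HOM, Atp1b1 and Slc24a3, and none rose (edgeR's quasi-likelihood test over 17395 genes, with a Benjamini-Hochberg adjusted p under 0.05). All 8 passed the filter on low counts. Over all genes tested, 2.94% fell, 2.47% rose and 5.40% changed in either direction. Of the 8 genes, 6 had a log2 fold change below 0, and the median was -0.22, beside 0.00 over all genes tested. Among the 6637 protein-coding genes with a mean of at least 30 CPM, the range in which all 8 genes lie, 62.2% had a log2 fold change below 0, 5.11% fell and the median was -0.05. The groups did not overlap at 3 of the 8 genes, Atp1b1, Atp1b2 and Slc24a3, all lower in HOM. Over all genes tested 7.47% were lower without overlap, 6.63% were higher without overlap and 14.1% were either. Among the 6637 protein-coding genes with a mean of at least 30 CPM, 853 (12.9%) were lower without overlap and 365 were higher.

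**Figure D1:**
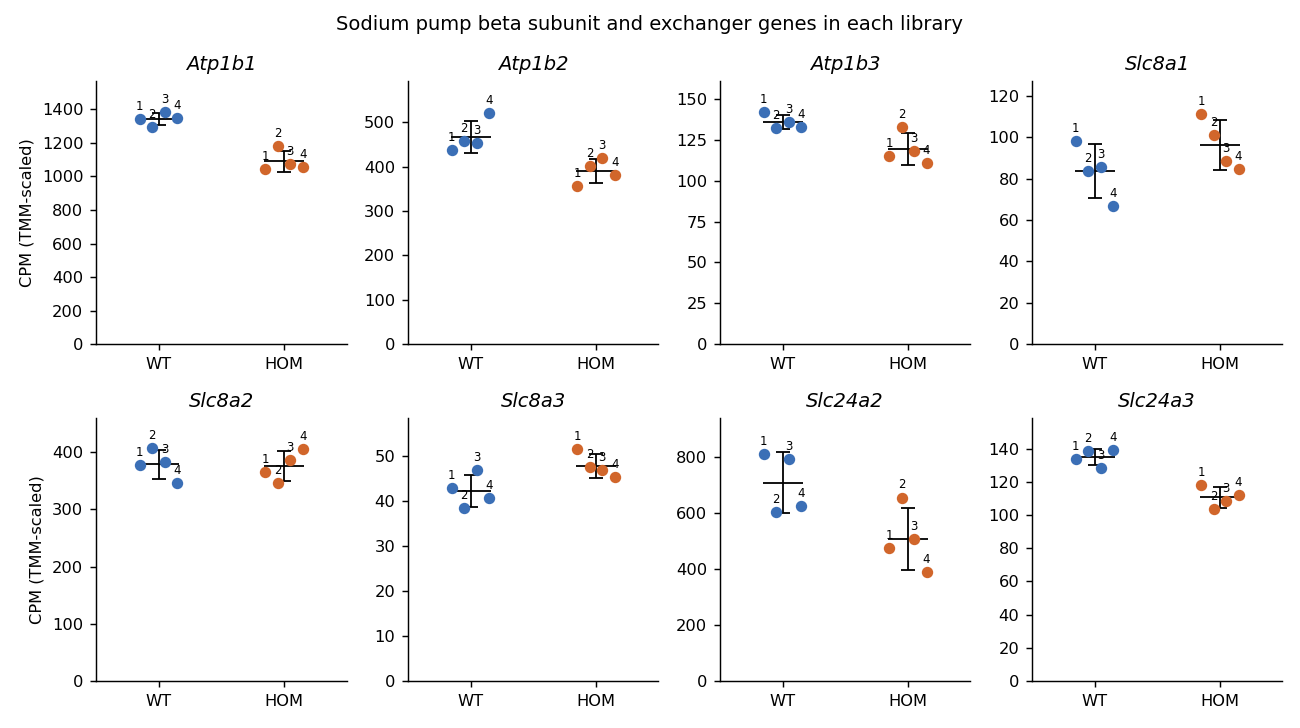
Levels of the 8 genes in each library (y axis, TMM-scaled CPM from 0) by genotype (x axis), with 1 numbered point per replicate and black bars for the mean and SD (n = 4). The WT and HOM points of Atp1b1, Atp1b2 and Slc24a3 do not overlap, and those of the other 5 genes do.

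The promoters of Slc24a3, Atp1b1 and Slc24a2 are shown because these genes had the smallest p or the largest fold change. The sequences come from RefSeq on GRCm38.p6, which matched 7 of the 8 genes (not Atp1b2), and run up to the gene start at most. Capitals mark matches on either strand to any of 8 motifs: the cyclic AMP response element (CRE, TGACGTCA), its core TGACG, an Egr site (GCGNGGGCG), an AP-1 site (TGANTCA), an E-box (CACGTG), a GC box (GGGCGG), the TATA box, searched for as TATANA, and the CCAAT box, which was searched for by the letters of its name. The core TGACG lies within the CRE, and an Egr site can share bases with a GC box.
Atp1b1, chr1:164458356-164458605, minus strand: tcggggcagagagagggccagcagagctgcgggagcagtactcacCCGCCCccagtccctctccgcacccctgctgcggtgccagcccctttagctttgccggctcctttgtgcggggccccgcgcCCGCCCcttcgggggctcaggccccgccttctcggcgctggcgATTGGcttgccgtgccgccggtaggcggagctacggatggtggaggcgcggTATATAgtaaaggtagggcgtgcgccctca
Slc24a3, chr2:145167525-145167753, plus strand: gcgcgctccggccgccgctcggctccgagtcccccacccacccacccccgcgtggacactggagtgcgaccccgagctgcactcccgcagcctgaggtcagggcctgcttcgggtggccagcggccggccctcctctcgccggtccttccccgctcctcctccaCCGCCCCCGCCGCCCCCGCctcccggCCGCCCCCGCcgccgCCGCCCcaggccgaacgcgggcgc
Slc24a2, chr4:87230541-87230790, minus strand: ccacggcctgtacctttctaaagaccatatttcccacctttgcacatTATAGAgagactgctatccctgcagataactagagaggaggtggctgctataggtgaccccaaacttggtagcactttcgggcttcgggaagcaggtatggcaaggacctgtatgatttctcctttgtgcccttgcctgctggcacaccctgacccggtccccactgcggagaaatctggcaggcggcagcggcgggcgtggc
The Atp1b1 window held 2 GC boxes, a CCAAT box 81 bases before the start and a TATA box 30 bases before it. The Slc24a3 window held 3 Egr sites, starting 85, 76 and 59 bases before the RefSeq start and each sharing bases with a GC box, and 1 more GC box; G and C made up 80.8% of its 250 bases. The Slc24a2 window held only a TATA box match, 203 bases before the start. Over 32851 promoters of 250 bases, 4.70% held the Egr motif, 32.7% a GC box, 22.6% the TATA motif and 33.9% a CCAAT box. Of the 10 promoters listed for the 7 genes, 1 held the Egr motif and none held the whole CRE or the AP-1 motif, which 1.55% and 6.75% of all promoters held. These matches describe the letters in the windows and say nothing of binding.

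Atp1b1, the beta1 subunit gene of the sodium pump, had the highest level of the 8 per kilobase of exon and fell in HOM. The WT libraries, in replicate order, held 1340.4, 1294, 1383 and 1346 CPM, and the HOM libraries 1046, 1183, 1073 and 1057 CPM. Every HOM library lay below every WT library, and HOM replicate 2 was the closest to them. The means were 1341 ± 36.4 and 1089.6 ± 63.2 CPM (SD, n = 4), so HOM stood at 81.3% of WT. The log2 fold change was -0.30 (SE 0.06, 95% interval -0.43 to -0.17, edgeR adjusted p = 0.0205). A two-sided exact permutation of log2 CPM gave p = 0.0286, the smallest that 70 relabellings allow. Groups that do not overlap reach this p by design, so it adds nothing to the lack of overlap. Atp1b1 (ENSMUSG00000026576) occupies 164437109 to 164458355 of chromosome 1 (GRCm38, minus strand), with 2.90% of that shared with Nme7. The call was lost without WT replicate 3 (adjusted p = 0.0760), HOM replicate 1 (0.0827) or HOM replicate 3 (0.0837), without WT and HOM replicates 4 together (0.0698) and once the choroid plexus marker level entered as a covariate (0.146, log2 fold change -0.35). That level itself went largely with genotype, at a mean log2 CPM of 1.34 to 4.48 in WT and -0.39 to 1.84 in HOM. The fit can therefore hardly separate the 2, and the SE of Atp1b1 was 0.10 under it. Of 7 general neuronal markers 1 fell, Snap25, and 6 were below 0, with sums of 9149 to 9484 CPM in HOM. Of 4 inhibitory neuron markers 1 fell, Gad1, and all were below 0, with sums of 1045 to 1146 CPM in WT and 843 to 981 CPM in HOM. Across the 8 libraries, which share the genotype difference, the log2 CPM of Atp1b1 was set beside the mean of each marker list. The Pearson r was 0.69 with the general markers and 0.91 with the inhibitory ones. The r was 0.71 with astrocyte, 0.71 with oligodendrocyte, 0.87 with oligodendrocyte precursor and 0.77 with endothelial markers. It was 0.61 with choroid plexus and -0.58 with microglial markers. The part of any of these lists in the result was not tested.

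Atp1b2, the beta2 subunit gene, which also acts in adhesion between neurons and glia, stood at 438, 457, 452 and 521 CPM in the WT libraries, in replicate order, and at 355, 402, 419 and 382 CPM in the HOM libraries. Each HOM value was below each WT value, and WT replicate 4 was the highest. The means were 467 ± 36.9 and 389.6 ± 27.2 CPM (SD, n = 4). The difference did not pass over all genes (log2 fold change -0.26, SE 0.07, 95% interval -0.42 to -0.10, edgeR adjusted p = 0.0610). It passed in 2 of 20 alternatives, with DESeq2 (adjusted p = 0.0162) and with a trend of gene span removed (edgeR, 0.0378). These 2 called 1818 and 1597 genes in all, against 940 as reported. It passed in none of the 8 removals of a single library. Of the 9 astrocyte markers 1 fell, Aqp4 (log2 fold change -0.40), and 8 had values below 0, and of the 9 oligodendrocyte markers none passed and all were below 0, with a median of -0.29. The summed astrocyte markers lay between 3953 and 4845 CPM in HOM and the summed oligodendrocyte markers between 3294 and 4027 CPM. Across the 8 libraries, which share the genotype difference, the log2 CPM of Atp1b2 had a Pearson r of 0.93 with the mean of the astrocyte markers and of 0.94 with that of the oligodendrocyte markers. The r was 0.88 with inhibitory neuron, 0.44 with general neuronal and 0.88 with oligodendrocyte precursor markers. It was 0.36 with endothelial, 0.68 with choroid plexus and -0.26 with microglial markers. The part of any of these lists in the result was not tested.

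Atp1b3, the beta3 subunit gene, had the lowest level of the 3 beta subunit genes per kilobase of exon; its libraries stood at 142, 133, 136 and 133 CPM in the WT libraries, and 115, 133, 118 and 111 CPM in the HOM libraries. HOM replicate 2 lay within the WT range and the other HOM libraries below it. The means were 136 ± 4.47 and 119 ± 9.69 CPM (SD, n = 4), a difference of -0.19 on the log2 scale (SE 0.07) that did not pass (edgeR adjusted p = 0.121). Without HOM replicate 2 the value was -0.23 and passed (edgeR adjusted p = 0.0489), the only 1 of 20 alternatives in which it did.

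Ratios between the beta subunit genes overlapped between the genotypes. Atp1b1 over Atp1b2 had a log2 ratio of 1.52 ± 0.12 across WT libraries and 1.48 ± 0.09 across HOM libraries (SD, n = 4). Atp1b3 over Atp1b1 had -3.30 ± 0.05 and -3.19 ± 0.04, WT replicate 1 at -3.24 lying above HOM replicate 4 at -3.25.

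Slc24a3, which encodes the potassium-dependent exchanger NCKX3, fell in HOM. It stood at 134, 139, 129 and 139 CPM in the WT libraries and at 118, 104, 109 and 112 CPM in the HOM libraries, in replicate order. The highest HOM library, replicate 1, remained below the lowest WT library, replicate 3. The means were 135 ± 4.84 and 111 ± 6.25 CPM (SD, n = 4), which puts HOM at 82.0% of WT. The log2 fold change was -0.29 (SE 0.06, 95% interval -0.42 to -0.15, edgeR adjusted p = 0.0243). Permuting its log2 CPM exactly, on both sides, again gave p = 0.0286, the smallest the design allows. Atp1b2, which was not called, had the same permutation p, and for each gene this value only restates that the groups did not overlap. Slc24a3 (ENSMUSG00000063873) spans 474 kb of the plus strand of chromosome 2, from 145167754 to 145642166 in GRCm38, and 9.88% of this is shared with other annotated genes. It is the only one of the 8 genes on the chromosome of Scn2a, and lies 79.4 Mb from it.

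The Slc24a3 call held in 3 of 8 removals of a single library. It was lost without WT replicate 3 (edgeR adjusted p = 0.0601), WT replicate 4 (0.0647), HOM replicate 1 (0.0521), HOM replicate 3 (0.101) or HOM replicate 4 (0.0502), at log2 fold changes from -0.31 to -0.25 over the 8 removals. It was lost as well with library totals in place of TMM (0.0575), when both libraries numbered 4 were removed (0.0893) and under the choroid plexus covariate, where the value moved to -0.19 (adjusted p = 0.402). Across the 8 libraries, which share the genotype difference, the log2 CPM of Slc24a3 had a Pearson r of 0.88 with the mean of 12 choroid plexus markers. The r was 0.80 with the inhibitory neuron markers and 0.70 with the general neuronal ones. It was 0.68 with endothelial, 0.56 with oligodendrocyte, 0.51 with oligodendrocyte precursor, 0.47 with astrocyte and -0.54 with microglial markers. Of the choroid plexus markers 4 fell and all were below 0 (median log2 fold change -2.42), and their part in the result was not tested. Without WT replicate 4, the library highest in them, the Slc24a3 value was -0.27. With a trend of gene span removed from each library it was -0.40 (edgeR adjusted p = 0.0101).

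Slc24a2, which encodes NCKX2, a neuronal exchanger that clears calcium from terminals and dendrites, had the largest fold change of the 8 and the largest SE. WT libraries held 811, 602, 794 and 626 CPM in replicate order, and HOM libraries 475, 655, 507 and 388 CPM. HOM replicate 2 lay above WT replicates 2 and 4, and the other HOM libraries lay below every WT library. The means were 708 ± 109 and 506 ± 111 CPM (SD, n = 4), or 71.5% of WT. The difference did not pass (log2 fold change -0.48, SE 0.15, 95% interval -0.80 to -0.17, edgeR adjusted p = 0.0706). It passed in 4 of 20 alternatives. These were without HOM replicate 2 (-0.62, edgeR adjusted p = 0.0193), with no filter on low counts (0.0313), with the span trend removed (0.0173) and with DESeq2 (0.0175). The gene spans 247 kb and overlaps no other annotated gene.

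**Figure D2:**
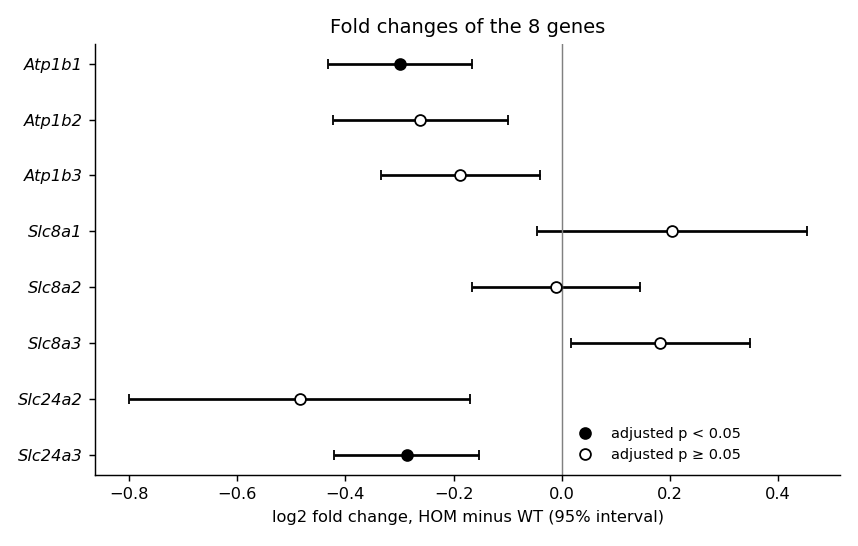
Log2 fold change of each gene (x axis, HOM minus WT) with its 95% interval, in the order of the gene families; filled points passed the edgeR test over all genes. Atp1b1 and Slc24a3 are filled, the 3 beta subunit genes and both Slc24 genes lie below 0, and the Slc8 genes lie on either side of it.

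None of the 3 Slc8 genes passed the test. Slc8a2, which encodes NCX2, an exchanger known mainly from brain, stood at 377, 408, 383 and 347 CPM in the WT libraries and at 366, 345, 386 and 406 CPM in the HOM libraries. The lowest and the highest library of each genotype nearly coincided. The means were 379 ± 25.1 and 376 ± 25.9 CPM (SD, n = 4), with a log2 fold change of -0.01, whose sign changed in 6 of 20 alternatives, and a 95% interval of -0.17 to 0.14 (edgeR adjusted p = 0.945).

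Slc8a1, which encodes NCX1, the exchanger also known from heart muscle, stood at 98.3, 83.7, 85.8 and 66.8 CPM in the WT libraries and at 111, 101, 88.3 and 84.8 CPM in the HOM libraries. The 2 highest values were in HOM and the lowest in WT replicate 4, with overlap between. The means were 83.6 ± 12.9 and 96.3 ± 12.1 CPM (SD, n = 4). The log2 fold change of 0.20 (SE 0.11, 95% interval -0.05 to 0.45) did not pass (edgeR adjusted p = 0.309). Its span of 365 kb is the second longest of the 8, and of 967 protein-coding genes over 200 kb 7.34% rose and 2.79% fell, with a median log2 fold change of 0.06. Its Pearson r was -0.86 with the mean of the astrocyte markers and -0.82 with that of the oligodendrocyte markers over the 8 libraries. The r was -0.60 with oligodendrocyte precursor, -0.58 with inhibitory neuron and -0.48 with choroid plexus markers. It was -0.22 with microglial, -0.20 with general neuronal and 0.12 with endothelial markers. The part of these markers in this was not tested. With the span trend removed the Slc8a1 value was 0.13 (edgeR adjusted p = 0.323).

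Slc8a3, which encodes NCX3, stood at 42.9, 38.6, 46.9 and 40.7 CPM in the WT libraries and at 51.7, 47.7, 47.1 and 45.4 CPM in the HOM libraries. Of the HOM libraries only replicate 4 lay below the highest WT library, replicate 3. The means were 42.3 ± 3.55 and 48.0 ± 2.67 CPM (SD, n = 4). The log2 fold change was 0.18 (SE 0.08, 95% interval 0.02 to 0.35, edgeR adjusted p = 0.176), and it passed under none of the 20 alternatives. The log2 ratio of Slc8a2 to Slc8a1 was 2.19 ± 0.19 in WT and 1.97 ± 0.26 in HOM, and that of Slc24a3 to Slc24a2 was -2.38 ± 0.27 and -2.17 ± 0.37 (SD, n = 4); both overlapped between the groups.

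Per kilobase of exon, the scale on which genes can be set beside each other, Atp1b1 led with 435 ± 11.8 CPM per kb in WT and 354 ± 20.5 in HOM (SD, n = 4). Atp1b2 followed at 114 ± 9.03 CPM per kb in WT, Slc8a2 at 72.0 ± 4.77, Slc24a2 at 58.0 ± 8.96 and Atp1b3 at 56.9 ± 1.87. Of these neighbours, Slc8a2 overlapped with Slc24a2 and Slc24a2 with Atp1b3 in their WT ranges. Slc24a3 stood at 29.6 ± 1.06 CPM per kb in WT, Slc8a3 at 7.93 ± 0.67 and Slc8a1 at 4.45 ± 0.69, each apart from the next. In HOM, Atp1b3 (50.0 ± 4.06) stood above Slc24a2 (41.4 ± 9.10), with overlapping ranges, and the order was otherwise the same. Since introns appear to be counted, long genes may stand too high on this scale, and the order differed per kilobase of span. There Atp1b2 (75.2 ± 5.94 CPM per kb in WT) stood above Atp1b1 (63.1 ± 1.71). Atp1b3 (4.27 ± 0.14) stood above Slc24a2 (2.86 ± 0.44), and Slc8a3 (0.313 ± 0.026) above Slc24a3 (0.285 ± 0.010).

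**Figure D3:**
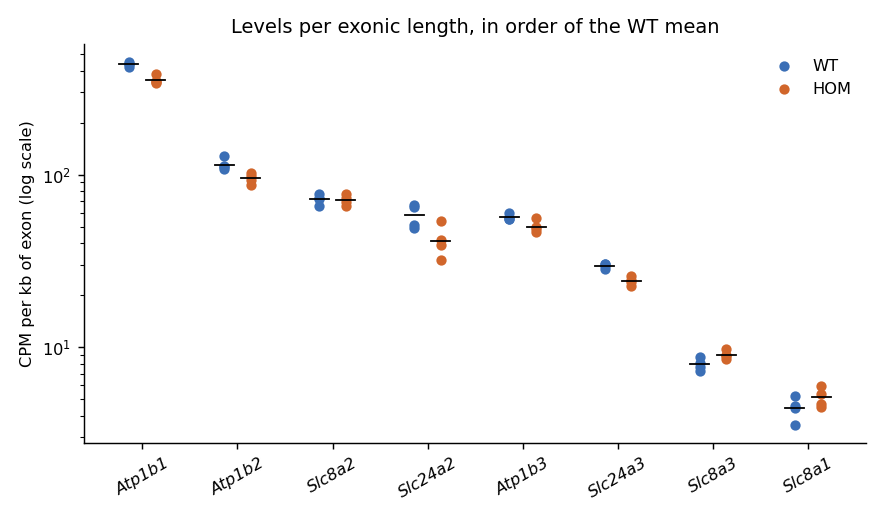
CPM per kb of exon (y axis, log scale) of the 8 genes, ordered by the WT mean, with 1 point per library and a bar at each genotype's mean. Atp1b1 lies above all the others in both genotypes, and Slc8a1 and Slc8a3 lie lowest.

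Within a genotype, libraries high in 1 of these genes were often high or low in others. After each genotype's mean was subtracted, the log2 CPM of Slc24a2 had a Pearson r of 0.92 with that of Atp1b3 and of 0.81 with that of Atp1b1 over the 8 libraries, and Slc24a3 had -0.74, -0.71 and -0.84 with Slc24a2, Atp1b3 and Atp1b1. HOM replicate 2 was the highest HOM library for Atp1b1, Atp1b3 and Slc24a2, by 0.12, 0.16 and 0.40 above the HOM mean on the log2 scale, and the lowest for Slc24a3, at -0.09. Atp1b2 and Slc8a1 had -0.81 with each other.

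**Figure D4:**
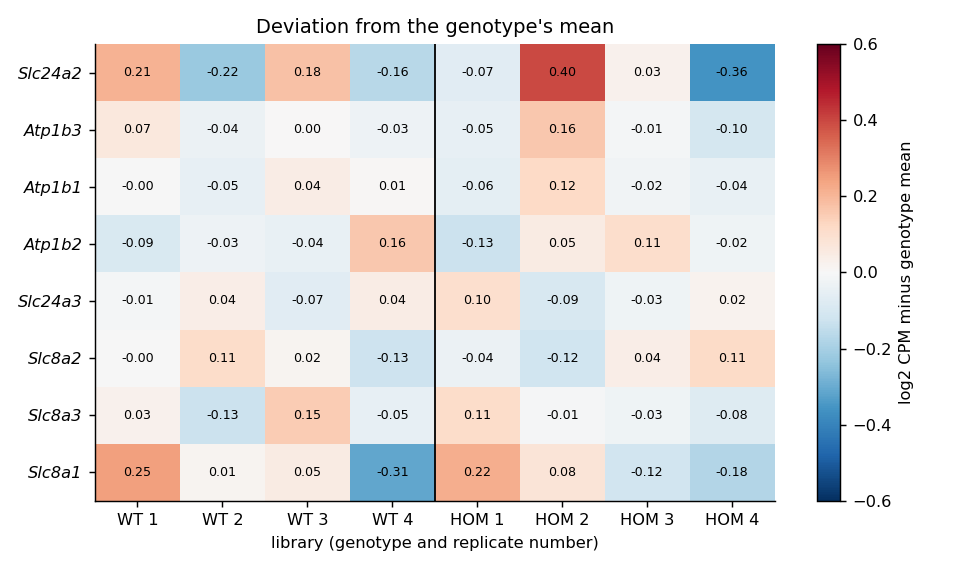
Log2 CPM of each gene (rows) in each library (columns) minus the mean of its genotype, with the value in each cell and colour from blue (below) to red (above). Slc24a2 ranges from -0.36 in HOM replicate 4 to 0.40 in HOM replicate 2, while Atp1b1 and Slc24a3 stay between -0.09 and 0.12.

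Genes with the most similar pattern were taken from 9971 protein-coding genes with a mean of at least 10 CPM, by Pearson r of log2 CPM over the 8 libraries. These correlations include the genotype difference and whatever else the libraries share. Each gene named is among the 3 highest of 9971 correlations over only 8 libraries, a choice that by itself favours a high r. The r that unrelated genes would reach was not tested. Atp1b1 was closest to Aplp2, a gene of the amyloid precursor family (r = 0.996), then to Scrn1 and Chn1. Atp1b2 was closest to Faf2 (0.990), the zinc transporter gene Slc39a12 and Klhdc7a. Atp1b3 was closest to the potassium channel gene Kcna1 (0.987), the calcium release channel gene Itpr1 and Pip4k2c. Slc24a2 was closest to Gpr158 (0.998), Adam23 and Dclk1, and Slc24a3 to Lamb2 (0.964), Tigar and Siah2. Slc8a1 was closest to Atxn1 (0.989), Rgs6 and Ptchd4, Slc8a2 to Kcnj9 (0.975), Adgrb2 and Gprin1, and Slc8a3 to Cbfb (0.976), Zfp933 and Fer. With the genotype means subtracted, Aplp2, Faf2, Cbfb and Gpr158 remained the closest to Atp1b1, Atp1b2, Slc8a3 and Slc24a2, at r = 0.991, 0.980, 0.968 and 0.996, and the closest to the other 4 genes changed.

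Other genes that move sodium and calcium were read from the same test in 8 lists, which hold 60 tested genes besides the members. Of these, 8 fell (13.3%) and 2 rose (3.33%), while 50 stayed short of the threshold. The median log2 fold change over the 60 was -0.09. Over all genes tested 2.94% fell and 2.47% rose. Among protein-coding genes with a mean of at least 30 CPM 5.11% fell and 2.26% rose, with a median of -0.05. In the rest of the sodium pump family, 1 of 9 fell and 1 rose. The riser was Fxyd5, which encodes a regulatory subunit of the pump: WT libraries averaged 11.9 ± 0.60 CPM and HOM libraries 18.0 ± 1.04 CPM (SD, n = 4). Its log2 fold change of 0.60 (SE 0.08, edgeR adjusted p = 0.00304) passed in all 8 removals of a library. It was lost with the choroid plexus covariate (edgeR adjusted p = 0.0755, log2 fold change 0.61). None of the other 4 exchanger genes passed, and all had values above 0; the mitochondrial sodium-calcium exchanger gene Slc8b1 stood at 0.41 (SE 0.16, edgeR adjusted p = 0.149).

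Calcium pumps, which remove calcium from the cytosol beside the exchangers, were lower in 2 of 9 genes tested, and none rose (median log2 fold change -0.21). Atp2b2, a plasma membrane calcium pump gene, averaged 941 ± 71.8 CPM in WT and 691 ± 48.8 CPM in HOM (SD, n = 4). This fall of -0.45 on the log2 scale (SE 0.07, edgeR adjusted p = 0.00957) passed in all 8 removals of a library, but not with the choroid plexus covariate (edgeR adjusted p = 0.0732, log2 fold change -0.55). Atp2a2, which encodes the endoplasmic reticulum pump SERCA2, went from 943 ± 47.0 CPM down to 703 ± 81.1 CPM, or -0.42 on the log2 scale (SE 0.08, edgeR adjusted p = 0.0175). Removing WT replicate 3 (0.0637), HOM replicate 1 (0.0719), HOM replicate 3 (0.0658) or both libraries numbered 4 (0.0513) ended its call, as did the covariate (0.129), where the value was -0.49 (SE 0.13).

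Of 11 genes of store-operated and endoplasmic reticulum calcium release, 1 fell, 1 rose and 9 did not pass. Itpr1 averaged 686 ± 49.4 CPM in WT and 489.9 ± 93.5 CPM in HOM, lower by -0.48 (SE 0.12, edgeR adjusted p = 0.0352), and Ryr3 averaged 81.8 ± 11.5 and 112 ± 12.2 CPM, higher by 0.45 (SE 0.10, edgeR adjusted p = 0.0323; SD, n = 4). Both encode calcium release channels. The groups overlapped at Ryr3 and not at Itpr1. Ryr3 spans 586 kb and Itpr1 338 kb, and of 967 protein-coding genes over 200 kb 7.34% rose and 2.79% fell. The Itpr1 call held only without WT replicate 2 or HOM replicate 2 among the 8 removals, and was lost with library totals (0.0507), on removing both libraries numbered 4 (0.0630) and under the covariate (0.204), where the value was -0.57 (SE 0.18). The Ryr3 call was lost without WT replicate 3 (0.0846), WT replicate 4 (0.0773), HOM replicate 1 (0.103) or HOM replicate 3 (0.0853) and with the covariate (0.202), where the value was 0.52 (SE 0.16).

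Of 6 calcium buffer and sensor genes, 2 fell. Vsnl1 averaged 626 ± 51.1 CPM in WT and 497 ± 29.8 CPM in HOM (SD, n = 4), lower by -0.33 (edgeR adjusted p = 0.0263), and Ncald had a log2 fold change of -0.30 (0.0186) but shares 0.74 of its span with other genes, so its count is uncertain. Vsnl1 passed in 3 of 8 removals and was lost with the covariate (0.0666, at -0.49), and Ncald passed in 5 of 8 and was lost with the covariate as well (0.135, at -0.35). Of 9 sodium-proton exchanger genes 1 fell and 8 did not pass, among them Slc9a3 (-0.59, SE 0.23, edgeR adjusted p = 0.156). The level of Slc9a3 was low, at 1.56 ± 0.35 CPM in WT and 1.04 ± 0.20 CPM in HOM (SD, n = 4). Of 5 sodium-bicarbonate transporter genes Slc4a5, also one of the choroid plexus markers, fell (-3.20, SE 0.84, edgeR adjusted p = 0.0477), with 4 not passing, among them Slc4a4 (-0.23, SE 0.10). Slc4a5 overlapped between the groups, passed in 8 of 20 alternatives, and had a value of -2.23 without WT replicate 4 (0.128) and of -0.40 with the covariate (0.678). The covariate is the mean of 12 markers that include Slc4a5 itself. A smaller value under it was therefore built in, and nothing is read from it. None of 7 genes of mitochondrial calcium uptake passed; Letm1 (-0.20, edgeR adjusted p = 0.0759) and Micu3 (-0.21, 0.203) had the smallest p.

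How many of the 8 beta subunit and exchanger genes fell depended on the libraries used. Removing WT replicate 3, HOM replicate 1 or HOM replicate 3 left 0, removing either library numbered 4 left 1, removing WT replicate 1 or 2 left 2, and removing HOM replicate 2 gave 4 (edgeR). The count of all genes lower in HOM, 511 as reported, moved as well. It was 114, 124 and 89 without WT replicate 3, HOM replicate 1 and HOM replicate 3. It was 285 and 258 without WT and HOM replicate 4, and 262 and 597 without WT replicates 1 and 2. Without HOM replicate 2 it was 649.

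**Figure D5:**
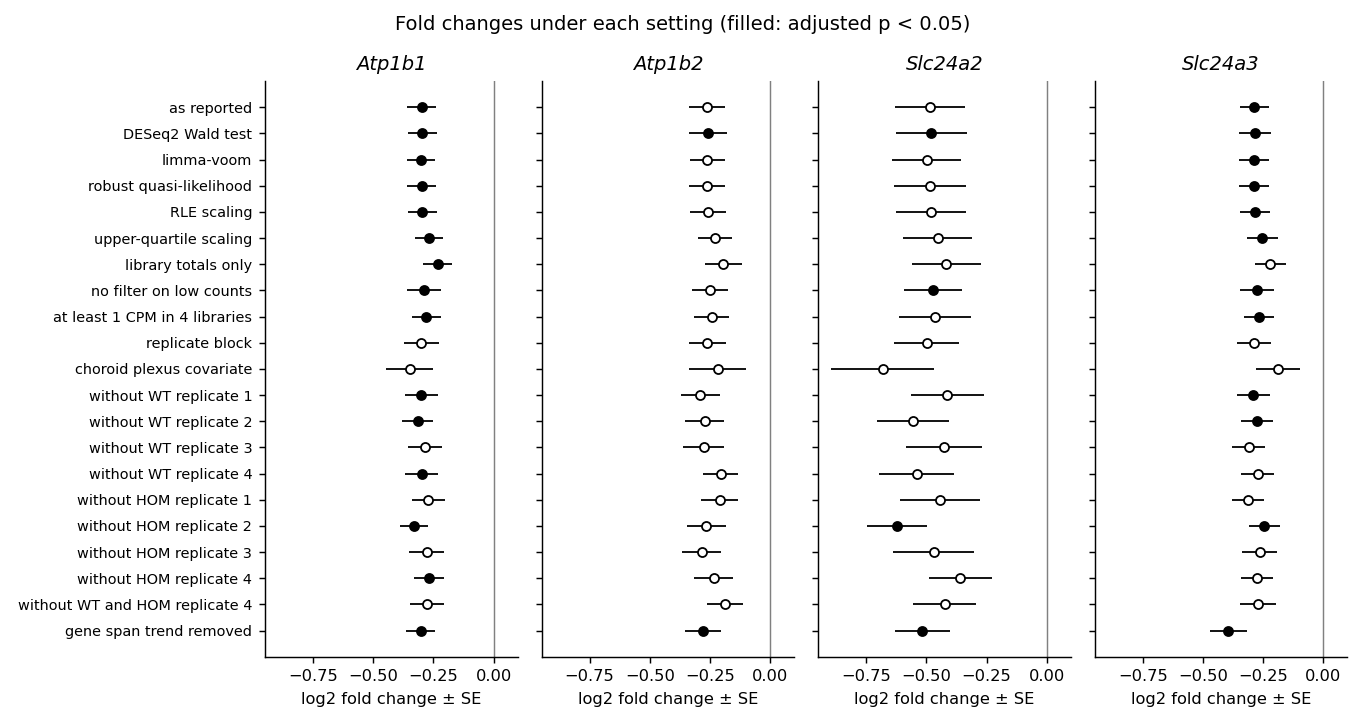
Log2 fold change with its SE (x axis, HOM minus WT) of Atp1b1, Atp1b2, Slc24a2 and Slc24a3 under the reported setting and each of 20 alternatives (y axis); filled points passed at an adjusted p under 0.05. All values lie below 0, from -0.68 for Slc24a2 with the choroid plexus covariate to -0.19 for Slc24a3 with the same covariate, and which points are filled changes with the library left out.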

How the data were processed

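Counts were measured by RNA-seq in 8 libraries, 4 WT and 4 HOM, the groups taken from the sample titles. The labels name a Qiagen RNA kit and stranded TruSeq libraries read from both ends. The authors deposited whole-number counts per Ensembl gene, without normalization; the tools listed per the submitters' processing notes are STAR, featureCounts, edgeR and FastQC 0.11.3, with the build GRCm38, and the strand setting is not given in the sources used here. GENCODE M21 named 54409 of 54446 identifiers; the other 37 held 0.0143% of counts. The test was edgeR 4.0.16 (R 4.3.3), by glmQLFit and glmQLFTest after TMM and filterByExpr (10 counts in 4 libraries, 15 in all), with Benjamini-Hochberg adjustment over 17395 genes and a threshold of 0.05. SE is the log2 fold change over the square root of F. Log2 CPM used a prior count of 2. In simulated HOM and WT counts for 17395 genes, 30.0% of 200 changes of 1.25-fold and 98.5% of those of 1.5-fold were recovered. The changed genes were drawn only from those with a mean of at least 30 CPM, so recovery at lower levels is not known. The simulated spread followed the trend over all genes and not the spread of each gene.

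The members, lists and tests were chosen with earlier results of these data known, and the promoter motifs after the promoters were seen. Named genes are the members, Scn2a, list genes past the threshold, the 2 of smallest p per list and the 3 most alike genes; a few list genes are counted and not reported here by name. Alternatives were DESeq2 1.42.0, limma-voom (limma 3.58.1), robust quasi-likelihood, other scalings and filters, a replicate block, a choroid plexus covariate, gene span trends (mgcv 1.9.3) and leaving out libraries. No 2 libraries of a group agreed within sampling noise (lowest chi-square per degree of freedom 6.68).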

Additional observations from a re-analysis of the deposited data

How the results depend on the processing

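Each of 20 alternatives changed 1 choice, except that DESeq2 brought its own size factors with its test and that 1 alternative left out a library of each genotype. The number of members lower in HOM was 2 as reported, 4 with DESeq2, 4 with the gene span trend removed, 1 with library totals only, 0 with the replicate block, 0 with the choroid plexus covariate, 0 without WT and HOM replicates 4 together, and 0 to 4 with 1 library left out; none was higher in any. All genes called numbered 940 as reported, 1818 with DESeq2, 1597 with the span trend removed, 364 with the replicate block, 38 with the covariate, 335 without WT and HOM replicates 4 together, and 180 to 1187 with 1 library left out. The split of higher and lower calls was 429 and 511 as reported, 539 and 355 with upper-quartile scaling and 844 and 286 with library totals only, where the median of all genes was 0.07. Scn2a passed in all 20. All members but Slc8a2 kept the sign of their log2 fold change in all 20. Slc8a2 changed sign in 6: 0.022 with upper-quartile scaling, 0.056 with library totals only, 0.0066 with the filter of 1 CPM in 4 libraries, 0.03 without WT replicate 2, 0.01 without HOM replicate 1 and 0.037 without HOM replicate 2; with 1 library left out it ran from -0.052 to 0.037. The cause of these changes was not tested, and with a library left out fewer samples are compared. The choroid plexus covariate went largely with genotype, so it is not read as a stricter test. The replicate numbers are not known to pair mice: deviations of same-numbered libraries correlated at 0.047, -0.20, -0.0070 and 0.028, so the block is not read as a stricter test. Under it the adjusted p (edgeR) was 0.0646 for both Atp1b1 and Slc24a3, 0.0667 for Vsnl1 and 0.0627 for Ncald.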
